A study of Mus musculus with 2 samples.

Results

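Cell cycle genes were followed in the stromal vascular fraction (SVF) of gonadal white adipose tissue (gWAT) by single-cell RNA sequencing. The set holds 38 of the 28692 genes in the count files. It was chosen by role, not by level: 24 genes of the G2/M phases (Mki67, Top2a, Birc5, Ube2c, Cdk1, Ccnb1, Ccnb2, Ccna2, Cenpa, Cenpe, Cenpf, Tpx2, Nusap1, Prc1, Kif11, Aurka, Aurkb, Bub1, Bub1b, Plk1, Cdc20, Cdca3, Cdca8 and Hmmr), 13 genes of S phase (Rrm2, Rrm1, Mcm2, Mcm3, Mcm4, Mcm5, Mcm6, Mcm7, Pcna, Tyms, Tk1, Gins2 and Hells) and Stmn1, a microtubule-destabilizing protein. All 38 were present under these names and all had at least 50 UMIs (unique molecular identifiers, 1 per captured transcript) over both libraries. Each genotype had 1 library, the littermate control and the Adipo-Pgam1 KO, made from male C57BL/6 mice at 13 weeks of age with no treatment named. The KO mice carry Adipoq-Cre and are flox/flox for Pgam1, a glycolytic enzyme. The control is named a littermate wildtype in the labels, whereas the study's methods describe its littermate controls as Cre-negative mice with the same flox/flox alleles. The Adipoq promoter drives Cre in adipocytes, and mature adipocytes are largely lost when the SVF is prepared, so most cells sequenced here are not those in which the gene is deleted. The number of mice behind each library is not given in the sources used here.

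In the cell cycle, DNA is copied in S phase by the MCM helicase, loaded at replication origins, and by polymerases held on DNA by the PCNA clamp. Cyclin B with the kinase Cdk1 then drives entry into mitosis, kinesins and the aurora and polo kinases build and position the spindle, the Bub proteins hold the spindle checkpoint, and the anaphase-promoting complex with Cdc20 and Ube2c ends mitosis by marking cyclins for destruction. Many G2/M genes are transcribed together late in the cycle and silenced in resting cells. In adipose tissue, immune cells of the SVF are known to divide locally, and division of progenitors supplies new adipocytes.

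The control matrix had 8522 barcodes (42859406 UMIs) and the KO matrix 2730 (13821581 UMIs). A barcode was kept if it had 500 or more detected genes and no more than 10% mitochondrial UMIs, which left 3881 control cells (45.5% of barcodes) with a median of 6948 UMIs and 958 KO cells (35.1%) with a median of 7452.5 UMIs. Levels are given as CPM, the total UMIs of a gene in a group of cells per 1000000 UMIs of that group. Ratios are log2 of KO CPM over control CPM with exact 95% intervals, and shares of cells carry 95% Clopper-Pearson intervals. With 1 library per genotype there is no replicate and no test between genotypes, and all intervals cover counting error only. Pgam1 itself had 110 CPM in control cells and 117 CPM in KO cells, and was found in 48.5% of control cells. Over all cells, then, the targeted gene does not separate these libraries. The paper reports markedly lower Pgam1 in a KO fibroblast cluster rich in adipocyte markers, which was not examined here. Adipoq, the adipocyte gene whose promoter drives Cre, had 24 and 8 UMIs in all. Transcripts induced by tissue dissociation were more abundant in KO cells (3370 CPM in control, 4867 CPM in KO) and haemoglobin transcripts less (9117 and 3485 CPM). Their part in the results below was not tested.

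Dividing cells were rare in both libraries. A cell was called cycling when Mki67, a protein that coats mitotic chromosomes, and Top2a, the topoisomerase that untangles replicated DNA, together had 2 or more UMIs. In the control, 91 of 3881 cells met this (2.34%, interval 1.89 to 2.87%), and in the KO library 36 of 958 (3.76%, interval 2.65 to 5.16%). The 2 intervals overlap. When each cell was thinned to 2000 UMIs, with 358 control and 102 KO cells too shallow to use, the shares were 1.36% (1.01 to 1.80%) and 1.99% (1.16 to 3.16%). The higher KO share depended on Mki67 and Top2a: by a definition that left both genes out, at least 3 of the other 22 G2/M members with a UMI, 98 control cells (2.53%, 2.05 to 3.07%) and 24 KO cells (2.51%, 1.61 to 3.70%) were cycling.

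The cells near this limit differed from those far above it. Exactly 1 UMI of Mki67 or Top2a was found in 154 control and 32 KO cells, whose median number of other G2/M members was 0 in each library. Exactly 2 UMIs were found in 23 control cells, with a median of 1 other G2/M member, and in 10 KO cells, with a median of 0. With 3 UMIs or more, 68 control cells had a median of 15 other G2/M members and 26 KO cells a median of 8.5. A cycling cell with no other G2/M member at all was found 12 times in the control (13.2% of cycling cells) and 15 times in the KO library (41.7%). These cells had a median of 4734.5 UMIs in control cells and 12560 UMIs in KO cells. The cycling cells with another G2/M member, 79 in the control and 21 in KO, had medians of 15968 and 16066 UMIs, and of 16 and 24 Mki67 and Top2a UMIs.

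Cycling cells differed in which phases their transcripts covered. At least 7 of the 13 S members were found in 55 of 91 control and 15 of 36 KO cycling cells, at least 11 of the other 22 G2/M members in 41 and 11, and both in 34 and 7. A cell with S members at that level and at most 2 G2/M members was seen 9 times in the control and 4 times in the KO library, and the reverse, G2/M members with at most 2 S members, in 1 control and 2 KO cells. A few cells held much of the signal. The 1% of cells with the most G2/M UMIs, 39 control and 10 KO cells, carried 74.6% and 76.4% of all G2/M UMIs, and the single highest cell had 444 and 464 UMIs.

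**Figure D1:**
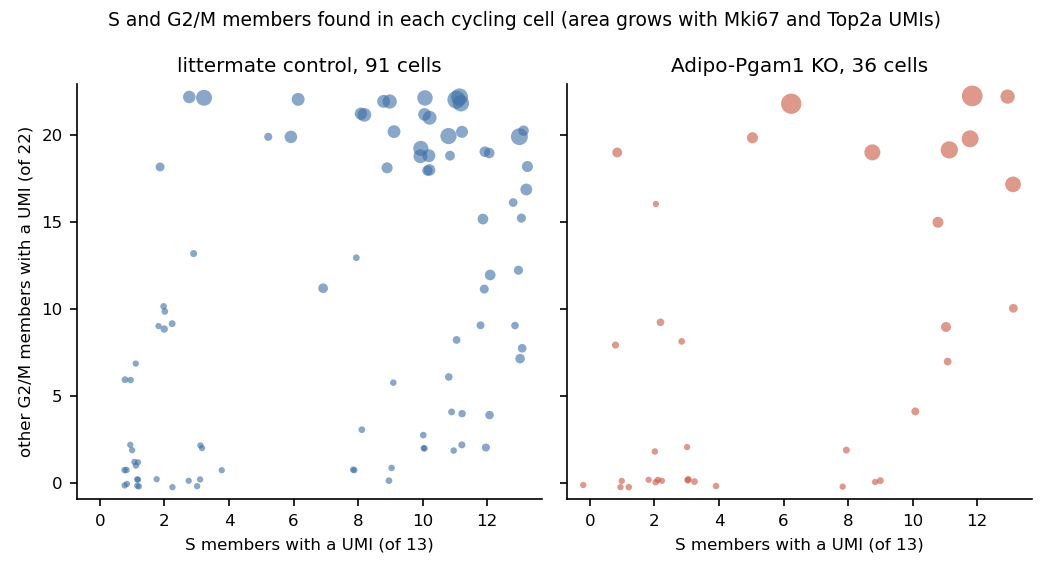
Each point is 1 cycling cell (2 or more Mki67 and Top2a UMIs) of the littermate control (91 cells, left) or the Adipo-Pgam1 KO library (36 cells, right). The x axis counts the S members with a UMI (of 13) and the y axis the other G2/M members with a UMI (of 22), with a small random offset so that points do not hide each other, and the area grows with the Mki67 and Top2a UMIs. Both libraries hold cells rich in both sets at the upper right, and 15 of the 36 KO cells lie at 0 on the y axis, against 12 of the 91 control cells.

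The G2/M members were close to silent outside cycling cells, whereas most S members were not. This is given as a description, since Mki67 and Top2a chose the cells. Of a G2/M member's UMIs in the control, a median of 85.9% lay in the 91 cycling cells, from 35.4% for Cenpa to 97.5% for Hmmr, and in the KO library the median was 88.6%. Of an S member's UMIs, a median of 33.0% lay there in control cells and 36.0% in KO cells. Cycling cells had 4611 CPM of the summed G2/M members in control cells and 3755 CPM in KO cells, where other cells had 49.7 and 40.1 CPM. The S members summed to 1758 and 1377 CPM in cycling cells and to 174 and 172 CPM in the others. All 38 members were at least 2-fold higher in cycling than in other control cells, as were 6.49% of 13296 genes, and so were all 31 members with at least 50 UMIs in the KO library, beside 7.35% of 11188 genes.

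Among the mitotic regulators, Ccna2 (cyclin A2) had 162 CPM in cycling and 0.442 CPM in other control cells, and 115 and 0.221 CPM in the KO library. Hmmr, a spindle protein, had 118 UMIs in cycling and 3 in other control cells, and 60 and 0 in the KO library. Bub1, a checkpoint kinase, had 85 and 3 UMIs in the control and 23 and 2 in the KO library. Birc5, the survivin subunit of the chromosomal passenger complex, had 258 and 0.821 CPM in the control and 166 and 0.552 CPM in the KO library. Each of these was nearly confined to the called cells in both libraries.

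Cenpa, the histone H3 variant that marks centromeres, was the exception among G2/M members. It had 225 CPM in cycling and 19.0 CPM in other control cells, and 150 and 14.8 CPM in the KO library, and 12.1% of the other control cells held a UMI of it. The next lowest shares of control UMIs in cycling cells were those of Aurka (61.3%), Aurkb (63.7%), Bub1b (69.6%) and Cdc20 (71.2%).

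Of the S members, 2 were nearly as restricted as the G2/M genes. Rrm2, the subunit of ribonucleotide reductase that is made in S phase, had 82.0% of its control UMIs in cycling cells, and Tk1, the thymidine kinase of the cell cycle, had 78.0%. Rrm1, the other subunit of the same enzyme, had 33.0%. The 6 MCM members ranged from 20.8% for Mcm4 to 46.3% for Mcm5. Pcna was found in 65.9% of cycling and 27.8% of other control cells, with 260 and 44.7 CPM, and had 21.2% of its UMIs in cycling cells. Stmn1 had the highest level of all members in cycling cells, 971 CPM in control cells and 805 CPM in KO cells, with 74.6% of its control UMIs there.

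The promoters of both classes were compared for letters of known cell cycle motifs. Many promoters of late cell cycle genes carry a cell cycle homology region (CHR), bound by the DREAM and MuvB complexes, near CCAAT boxes bound by NF-Y, and promoters of S genes carry E2F sites. RefSeq windows of 300 bases, 250 before to 50 after the start of transcription (GRCm38.p6), were found for 32 members and searched on both strands for CHR (TTTGAA or TTCGAA, the second its own reverse complement), CCAAT and E2F (TTTCCCGC, TTTGGCGC, TTTCGCGC or TTTGCCGC, which can overlap each other). Ccna2, Tpx2, Aurkb, Mcm4, Gins2 and Stmn1 had no entry. CHR letters were in 17 of 21 G2/M members and 2 of 11 S members (Mcm2 and Mcm7), and in 21.7% of 27025 genes with a window. E2F letters were in 1 of 21 G2/M members (Cdk1) and 5 of 11 S members (Mcm3, Mcm5, Mcm6, Mcm7 and Hells), against 2.6% of all genes. CCAAT was in 19 and 8, against 41.1%. Rrm2 and Tk1 had neither CHR nor E2F letters in this window. Of the 25 CHR matches in G2/M members, 17 began within 50 bases of the start of transcription. The CCAAT matches lay farther upstream, at a median of -78. Prc1 has overlapping windows for 2 starts, so its CHR site and its CCAAT box each count once per start. A match is a description of letters, not of a bound site.

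To show these letters in place, the 150 bases before the start are printed for 5 members that hold them in a stretch wholly outside the annotated gene (GENCODE vM21), 3 with CHR and 2 with E2F letters, with motifs and members chosen after the values were seen, 5′ to 3′ on the gene's strand. Capitals mark CCAAT boxes and, in G2/M members, CHR, or, in S members, E2F letters, on either strand, so that CCAAT may read ATTGG and CHR TTCAAA. Top2a carries 3 CHR matches and 4 CCAAT boxes in this stretch, chr11:99024190-99024339 on the minus strand.
Top2a: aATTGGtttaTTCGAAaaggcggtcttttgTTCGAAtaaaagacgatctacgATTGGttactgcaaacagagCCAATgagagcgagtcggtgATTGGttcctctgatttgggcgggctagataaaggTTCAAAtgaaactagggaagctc
Mki67, chr7:135716380-135716529 on the minus strand, carries 2 CHR matches and 1 CCAAT box.
Mki67: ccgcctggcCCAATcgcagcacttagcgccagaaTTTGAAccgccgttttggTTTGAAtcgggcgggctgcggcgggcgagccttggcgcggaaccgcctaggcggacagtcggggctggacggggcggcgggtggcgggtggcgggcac
Kif11, the spindle kinesin Eg5, chr19:37376232-37376381 on the plus strand, carries 1 of each.
Kif11: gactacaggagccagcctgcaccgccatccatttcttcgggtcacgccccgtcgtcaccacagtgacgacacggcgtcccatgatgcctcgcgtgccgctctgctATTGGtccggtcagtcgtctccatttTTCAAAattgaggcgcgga
Mcm6, chr1:128359706-128359855 on the minus strand, carries 3 E2F matches, of which 2 overlap, and 2 CCAAT boxes.
Mcm6: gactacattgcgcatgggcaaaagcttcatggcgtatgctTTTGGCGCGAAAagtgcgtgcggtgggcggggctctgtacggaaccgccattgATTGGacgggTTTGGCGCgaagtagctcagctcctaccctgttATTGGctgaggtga
Mcm5, chr8:75109359-75109508 on the plus strand, carries 1 E2F match and 2 CCAAT boxes.
Mcm5: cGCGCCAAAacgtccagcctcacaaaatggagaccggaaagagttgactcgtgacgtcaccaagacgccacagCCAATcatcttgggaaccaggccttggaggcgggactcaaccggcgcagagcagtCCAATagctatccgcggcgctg

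**Figure D2:**
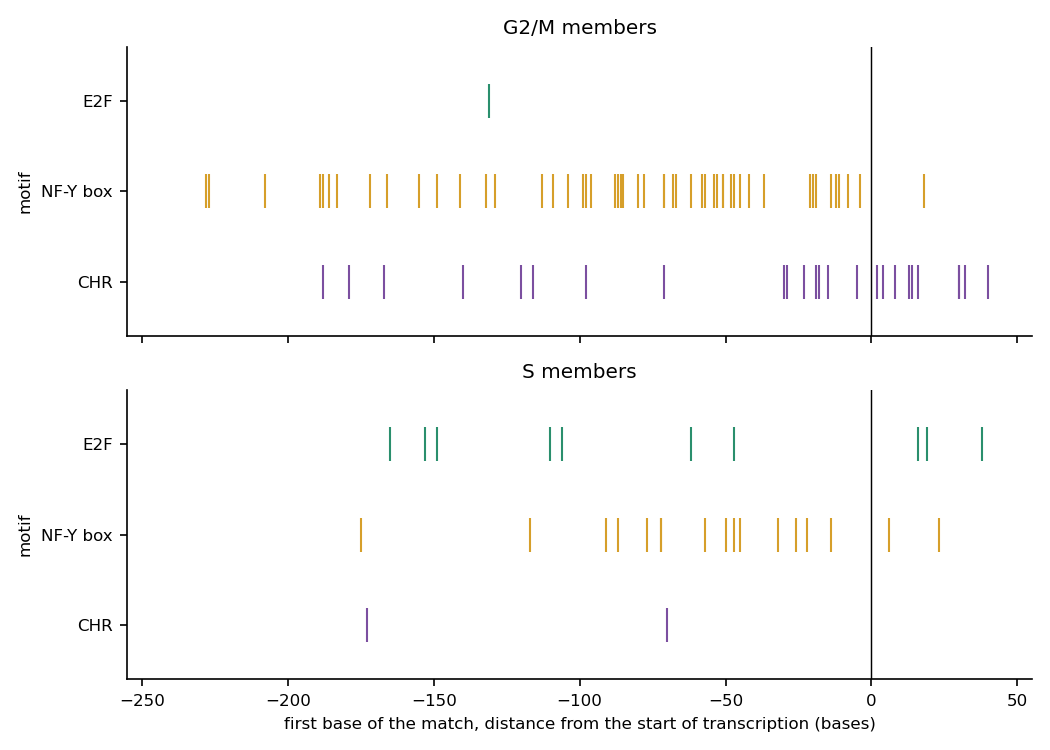
Positions of the CHR, NF-Y box (CCAAT) and E2F letters in the promoter windows of 21 G2/M members (top) and 11 S members (bottom). Each tick is the first base of 1 match on either strand, and the x axis is the distance in bases from the start of transcription, marked by the vertical line. CHR ticks gather around the start in the G2/M members, 17 of 25 within 50 bases. They are nearly missing from the S members, which hold 10 E2F ticks against 1. The same Prc1 sites are ticked once for each of its 2 starts.

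To see which cells were cycling, the cells were clustered without cell cycle genes (248 genes left out) and the clusters were named by markers, which gave 16 named and 6 unnamed clusters. Dendritic-like cells had the highest share of cycling cells in the control, 27 of 285 (9.47%, 6.34 to 13.5%), and 10 of 67 in the KO library (14.9%, 7.40 to 25.7%). Within them, the cluster led by Xcr1 and Clec9a, genes of cross-presenting dendritic cells, had 12 of 86 control (14.0%, 7.42 to 23.1%) and 8 of 30 KO cells cycling (26.7%, 12.3 to 45.9%), and the cluster led by Ccl22 and Ccl17 had 15 of 199 (7.54%, 4.28 to 12.1%) and 2 of 37 (5.41%, 0.661 to 18.2%). An unnamed cluster led by Lyz1 and Mmp12, with macrophage and monocyte genes, had 21 of 333 (6.31%, 3.95 to 9.48%) and 5 of 68 (7.35%, 2.43 to 16.3%). T-like cells had 14 of 289 (4.84%, 2.67 to 7.99%) and 6 of 144 (4.17%, 1.54 to 8.85%). NK-like cells had 7 of 251 (2.79%, 1.13 to 5.66%) and 0 of 52, which allows a share of up to 5.77% by the limit of 3 cells used for a count of 0 (Clopper-Pearson upper end 6.85%). These shares depended on Mki67 and Top2a. By at least 3 of the other 22 G2/M members, dendritic-like cells had 9.82% in the control and 10.4% in KO. The Lyz1 and Mmp12 cluster had 9.61% and 10.3%, T-like cells 2.77% and 0.694%, and NK-like cells 1.59% and 3.85%. No other G2/M member was found in 4 of 10 dendritic-like and 5 of 6 T-like cycling KO cells. The same held for 5 of 14 T-like cycling control cells.

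The macrophage-like cells, led by Folr2, Cbr2 and Fcna, had 5 of 378 control cells cycling (1.32%, 0.431 to 3.06%), below the lower end of the interval of the Lyz1 and Mmp12 cluster, and 1 of 35 KO cells. Cells of the stroma and vessels had low shares. Fibroblast-like cells, the largest group, had 3 of 814 (0.369%, 0.0761 to 1.07%) and 0 of 179, which allows up to 1.68% by the same limit (Clopper-Pearson upper end 2.04%). Pericyte- and smooth muscle-like cells had 2 of 189 and 0 of 15, endothelial-like cells 0 of 172 and 2 of 62, and mesothelial-like cells 0 of 116 and 0 of 20. ILC2-like cells (group 2 innate lymphoid cells) had 2 of 190 and 0 of 70, and B-like cells 1 of 137 and 0 of 40. Taken by lineage, myeloid clusters held 53 of the 91 cycling control cells (4.76% of their 1113 cells) and 17 of the 36 in the KO library (8.72% of 195), lymphoid clusters 30 (3.08% of 974) and 16 (4.53% of 353), and all other clusters 8 (0.446% of 1794) and 3 (0.732% of 410). The upper end of the control interval of those other clusters, 0.877%, lies below the lower ends of the lymphoid (2.09%) and myeloid (3.59%) intervals.

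**Figure D3:**
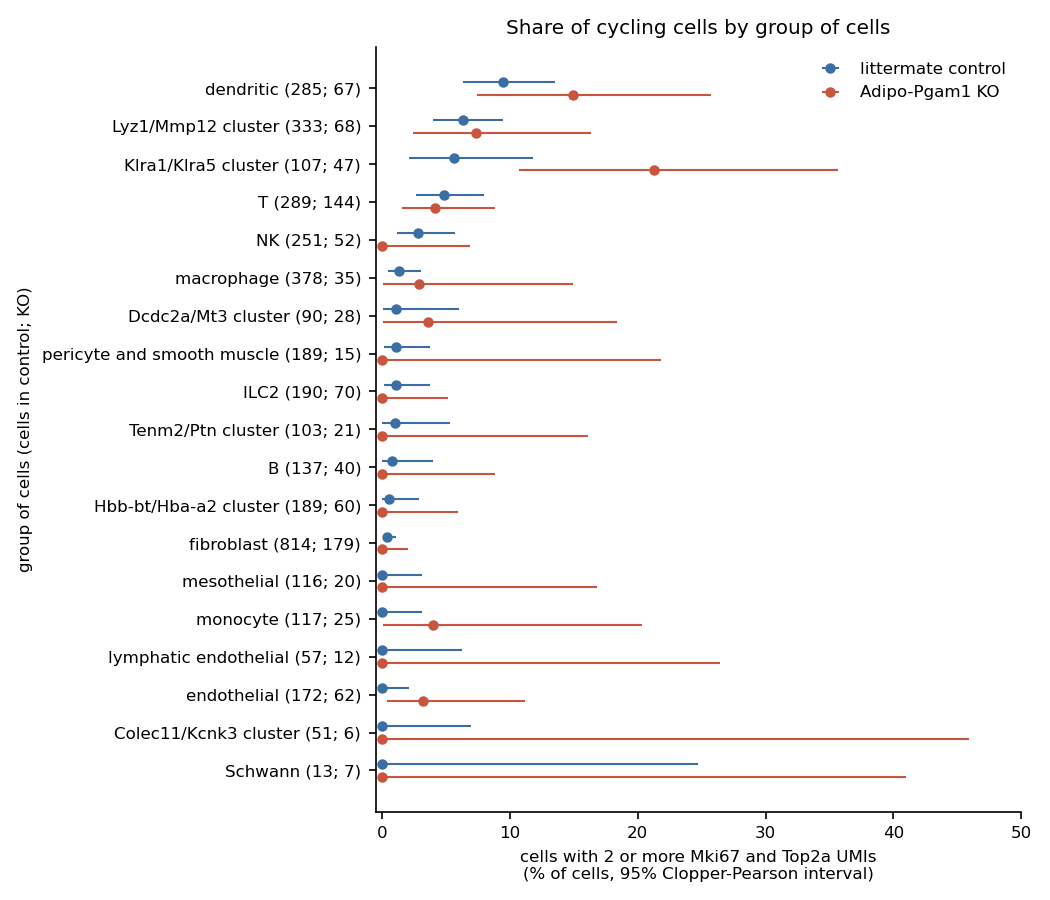
The share of cells with 2 or more Mki67 and Top2a UMIs (x axis, % of cells) in each group of cells (y axis, with the number of control and KO cells), for the littermate control (blue) and the Adipo-Pgam1 KO library (red). Bars are 95% Clopper-Pearson intervals. Dendritic-like cells lead in the control at 9.47%, and the Klra1 and Klra5 cluster stands at 5.61% in control cells and 21.3% in KO cells. That cluster has 47 KO cells, under the limit of 50 cells, so its values are not compared. By at least 3 of the other 22 G2/M members it had 4.67% and 10.6%.

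The G2/M members were found in fewer groups of cells than the S members. How far levels followed the shares was not measured, and Mki67 and Top2a, which define the shares, are themselves G2/M members. Over the 18 groups with at least 50 control cells, a G2/M member had a UMI in a median of 14 groups and 1 of the 24, Cenpa, in all, whereas 8 of the 13 S members were found in all 18. Of the G2/M members, 13 of 24 had their highest control level in dendritic-like cells, among them Birc5 (43.5 CPM), Cenpf (38.2 CPM), a kinetochore protein, and Nusap1 (37.7 CPM), a spindle protein. Mki67 (149 CPM), Top2a (131 CPM), Tpx2 and Hmmr were highest in an unnamed cluster led by Klra1 and Klra5, as were 9 of the 13 S members, for example Pcna (109 CPM) and Mcm6 (81.6 CPM). In that cluster 1 control cell held 161 of the 319 G2/M UMIs. Ube2c, which charges ubiquitin for the anaphase-promoting complex, had 53.1 CPM in ILC2-like and 52.8 CPM in dendritic-like cells, with 0 UMIs in the ILC2-like cells that were not cycling.

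Some members had levels that the cycling cells did not carry. With cycling cells left out, Cenpa had 68.6 CPM in macrophage-like, 53.6 CPM in B-like and 43.8 CPM in T-like control cells, and 2.76 CPM in fibroblast-like cells. Stmn1 had 208 CPM in the other cells of an unnamed cluster led by Dcdc2a and Mt3, which also expressed Krt8 and Mmp7, and 46.0 CPM in mesothelial-like and 44.4 CPM in endothelial-like cells, against 3.06 CPM in fibroblast-like cells. Mcm7 was also highest in the Dcdc2a and Mt3 cluster (54.7 CPM), whose cells were shallow, with a median of 2153.5 UMIs over both libraries. Pcna, which also serves DNA repair, had 76.3 CPM in monocyte-like control cells, none of which was cycling. Tyms (thymidylate synthase) was highest in lymphatic endothelial-like cells at 20.1 CPM from 7 UMIs, where 0 of 57 cells were cycling.

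**Figure D4:**
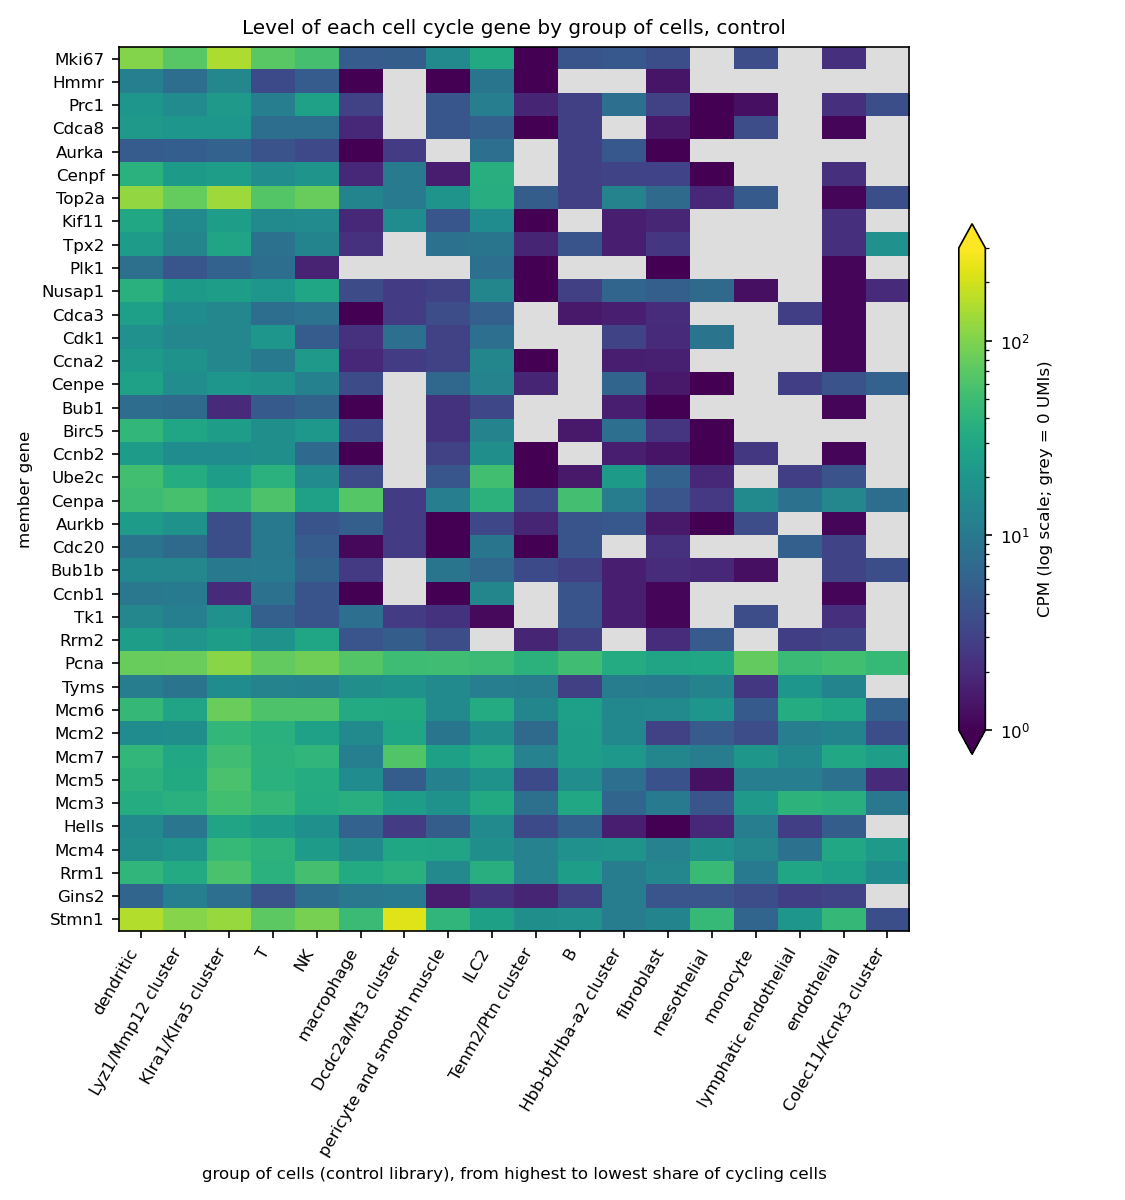
Control level of each of the 38 members (rows) in the 18 groups with at least 50 control cells (columns, from the highest to the lowest share of cycling cells), as CPM on a log colour scale, grey where a group held 0 UMIs. Grey cells are frequent in the G2/M rows at the top, where only Cenpa has none, while 8 of the 13 S rows below have none. Stmn1, the bottom row, reaches 225 CPM in the Dcdc2a and Mt3 cluster.

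Between the genotypes, the summed levels of the cell cycle genes were close. The 24 G2/M members had 8322 UMIs (251 CPM) in the control and 2834 UMIs (292 CPM) in the KO library, a log2 ratio of 0.22 (0.15 to 0.28). Without Mki67 and Top2a, the other 22 had 183 and 191 CPM (log2 0.06, -0.01 to 0.14). The 13 S members had 8080 UMIs (244 CPM) and 2462 UMIs (254 CPM), a log2 ratio of 0.06 (-0.01 to 0.12). The G2/M value rested on few cells: without the 1% of cells with the most G2/M UMIs in each library, a choice made after seeing the data, it was 0.11 (-0.01 to 0.24). With KO clusters weighted to the control's shares of cells it was -0.12.

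None of the 38 members was past 2-fold in either direction between the libraries, beside 2.35% of 13720 genes 2-fold higher and 2.18% 2-fold lower in the KO library. Their median log2 ratio was 0.12, and that of all genes -0.08. The interval lay above 0 for 8 members and below 0 for 3, beside 16.5% and 28.7% of the 13720 genes. Mki67 had 31.4 CPM in control cells and 54.1 CPM in KO cells (log2 0.78, 0.63 to 0.94) and Top2a 37.1 and 47.2 CPM (log2 0.35, 0.19 to 0.50). Hmmr had 3.65 and 6.18 CPM, and Prc1, which bundles microtubules of the central spindle, 8.18 and 12.5 CPM. Cenpf, with 11.5 and 14.6 CPM, and Cdca8 (borealin of the chromosomal passenger complex), with 7.18 and 9.27 CPM, were higher by less.

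The lower members included a cyclin. Ccnb1 (cyclin B1) had 131 UMIs and 3.95 CPM in the control, and 21 UMIs and 2.16 CPM in the KO library, a log2 ratio of -0.87 (interval below 0). Its partner Cdk1 had 6.82 and 7.52 CPM and Ccnb2 (cyclin B2) 7.12 and 6.80 CPM, with intervals that include 0. Cenpa had 930 and 233 UMIs (log2 -0.23, interval below 0). Of the S members, Gins2, a subunit of the replicative helicase, had 6.01 and 4.02 CPM (log2 -0.58), and Pcna 54.2 and 61.3 CPM (log2 0.18). The MCM members had log2 ratios from -0.16 (Mcm4) to 0.13 (Mcm6), Rrm2 0.26, Rrm1 -0.17, Tk1 0.29, Tyms 0.14 and Hells, a chromatin remodeller, -0.12, all with intervals that include 0. Stmn1 had 57.5 and 71.0 CPM (log2 0.30, interval above 0).

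Within cycling cells alone, most members were lower in the KO library, where a larger share of the cells held no other G2/M member (41.7% against 13.2%). The G2/M members other than Mki67 and Top2a, which chose the cells, summed to 3164 CPM in control cells and 2310 CPM in KO cells (log2 -0.45, -0.54 to -0.37). Of these 22, 16 had an interval below 0 and 0 an interval above it, beside 12% and 9.16% of 5909 genes. The 22 members largely share the same few cells, so the 16 are not separate observations. In the KO library, 10 cells carried 76.4% of all G2/M UMIs. The mix of cycling cells also differed, with 6 of 91 in the Klra1 and Klra5 cluster for the control library and 10 of 36 for KO. How far this mix lowered the KO levels was not tested. Ccnb1 had 77.9 CPM in 91 control and 28.9 CPM in 36 KO cells (log2 -1.43), and Cdc20 64.2 and 31.9 CPM (log2 -1.01). These 2 were the only members past 2-fold lower and no member was past 2-fold higher, beside 4.64% lower and 1.88% higher of 5909 genes. The 38 members had a median of -0.38, and all genes tested -0.05. Ccnb1 was found in 29.7% of cycling control and 13.9% of cycling KO cells. Of the S members, Rrm1, Mcm4 and Mcm7 had intervals below 0, with log2 ratios of -0.59, -0.72 and -0.62.

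**Figure D5:**
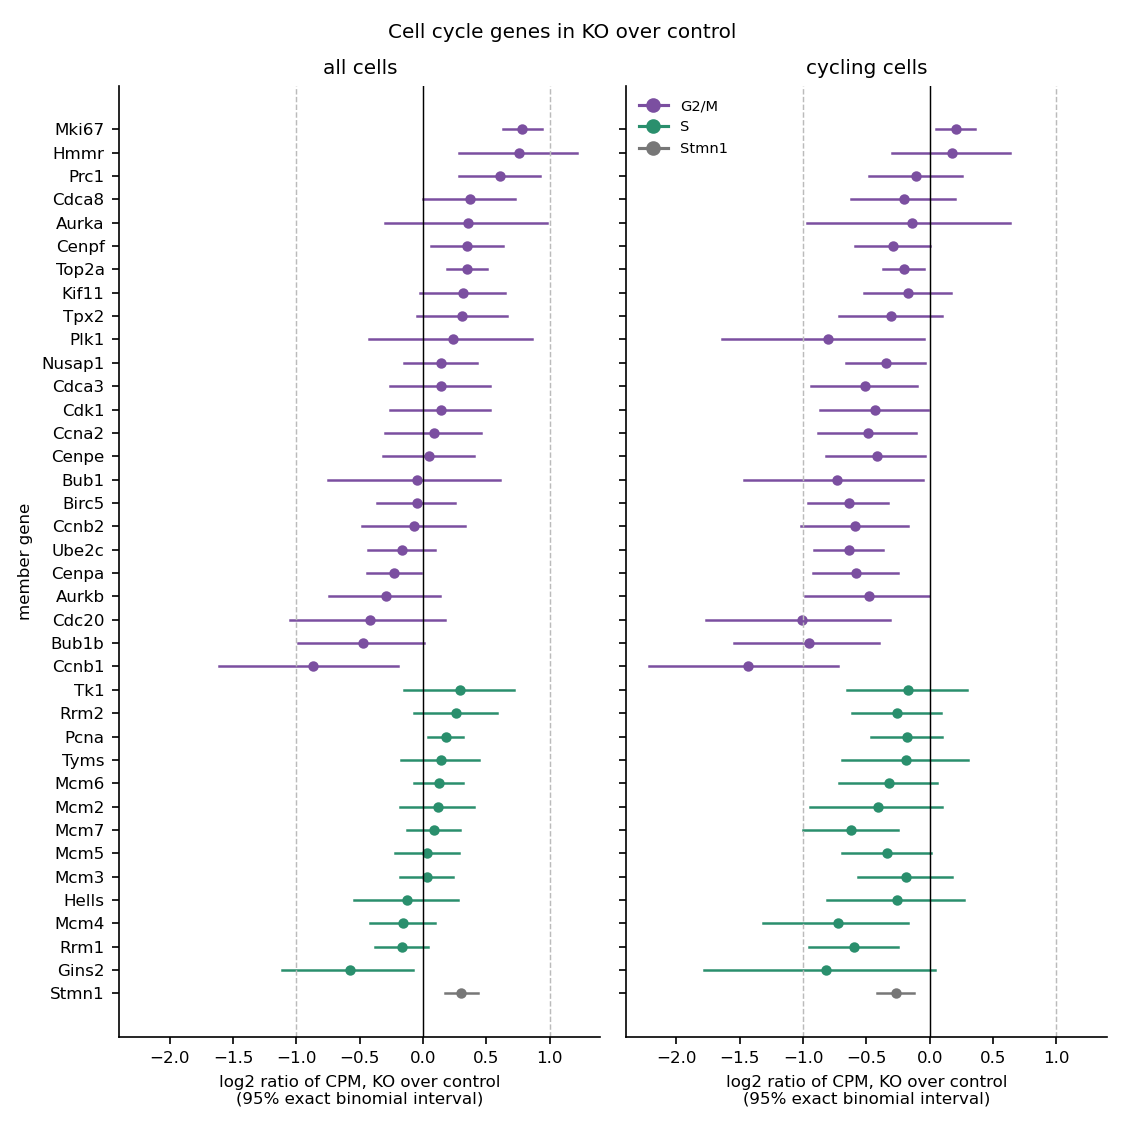
Log2 ratio of CPM, KO over control, of each of the 38 members over all cells (left) and over cycling cells (right), with exact 95% binomial intervals that cover counting error only. Dashed lines mark 2-fold. Over all cells no point passes a dashed line and Mki67 leads at 0.78, whereas over cycling cells Ccnb1 at -1.43 and Cdc20 at -1.01 pass the lower one. These had 19 and 21 UMIs in cycling KO cells, and 4.64% of 5909 genes were also 2-fold lower there.

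By group of cells, the G2/M sums were often carried by 1 or a few cells. Groups with at least 50 cells in each library were compared, also without the cell with the most G2/M UMIs of each group and library, an alternative chosen after seeing the data. This takes a larger share of cells from the KO library, which has fewer, so that ratios without these cells are values without a direction to be read from them. In ILC2-like cells, the G2/M sum was 385 CPM in control cells and 39.1 CPM in KO cells (log2 -3.30), but 1 control cell held 283 of the 334 UMIs, and without the top cell of each library the ratio was -0.78 (-1.72 to 0.08). In fibroblast-like cells it was 60.3 and 14.8 CPM (log2 -2.03), with 427 of 615 control UMIs in 1 cell, and -0.42 (-0.94 to 0.07) without the top cells. In the Lyz1 and Mmp12 cluster it was 531 and 628 CPM (log2 0.24), with 464 of 636 KO UMIs (73.0%) and 349 of 2312 control UMIs (15.1%) in 1 cell each, and -1.32 without the top cells. Endothelial-like cells had 51.9 and 98.2 CPM (log2 0.92), with 21 of 40 KO UMIs in 1 cell, and 0.16 without the top cells.

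T-like and NK-like cells had lower G2/M levels in the KO library, but not under some other groupings. T-like cells had 463 CPM in control cells and 97.5 CPM in KO cells (log2 -2.25, -2.58 to -1.93, and -1.58 without the top cells). Of the control UMIs, 1 cell held 312 of 649 and 3 cells held 71.3%. NK-like cells had 404 and 92.6 CPM (log2 -2.12, -2.70 to -1.60, and -1.52 without the top cells). There 1 control cell held 204 of 459 UMIs and 3 cells held 79.7%. With cycling cells left out, NK-like cells went the other way, with 56.6 and 92.6 CPM (log2 0.71, 0.04 to 1.36). T-like cells then had 96.3 and 74.1 CPM (log2 -0.38, -0.84 to 0.07). Ube2c had 53 UMIs in control T-like cells and 1 in KO, and Mki67 had 64 and 1 in NK-like cells. The S sum differed less, 438 and 314 CPM in T-like cells (log2 -0.48) and 434 and 355 CPM in NK-like cells (log2 -0.29). When each cell was instead assigned by its own markers, the G2/M ratio was 0.98 in T-like and 0.75 in NK-like cells.

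The Klra1 and Klra5 cluster carried genes of T cells and some genes of NK cells. Among its 101 control cells that were not cycling, Cd3g was found in 93.1%, Cd3e in 86.1% and Trbc2 in 94.1%. Cd4 was found in 0 and Cd8a in 1 cell. Of the NK genes, Klrb1c was found in 85.1% and Ncr1 in 48.5%. Eomes was in 16.8% and Gzma in 19.8%, beside 57.8% and 69.3% of NK-like control cells that were not cycling. In the control 6 of 107 of its cells were cycling (5.61%, 2.09 to 11.8%), and in the KO library 10 of 47 (21.3%, 10.7 to 35.7%). By at least 3 of the other 22 G2/M members, 5 cells of each library were cycling (4.67% and 10.6%). The KO library was under the limit of 50 cells, so the values are set side by side without a comparison. Its 10 cycling KO cells had 315, 111, 100, 97, 16, 2, 2, 0, 0 and 0 UMIs of the other 22 G2/M members, and the 6 control cells 86, 31, 21, 12, 5 and 0. The G2/M sum was 635 CPM in control cells and 3312 CPM in KO cells, with 3 KO cells holding 81.3% of it, and the S sum 595 and 725 CPM. Outside cycling cells the G2/M sum was 72.4 and 65.1 CPM. With T-like, NK-like and Klra1 and Klra5 cells counted together, also chosen after seeing the data, 27 of 647 control cells (4.17%, 2.77 to 6.01%) and 16 of 243 KO cells (6.58%, 3.81 to 10.5%) were cycling, with 469 and 744 CPM of G2/M members and 462 and 406 CPM of S members.

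In dendritic-like cells, the S sum was higher in the KO library while the G2/M sum was close. The S sum was 388 CPM in control cells and 599 CPM in KO cells (log2 0.63, 0.49 to 0.76). Among S members, Rrm2 had 24.4 and 54.4 CPM, Tyms 10.9 and 31.2 CPM and Mcm2 15.9 and 36.6 CPM. Pcna had 79.1 and 114 CPM, and Rrm1 42.7 and 41.9 CPM. These members largely share the same cells, so they are not separate observations. Stmn1 was 155 and 262 CPM (log2 0.76). The G2/M sum was 742 and 720 CPM (log2 -0.04, -0.16 to 0.07), with members in both directions. Ube2c, for example, was lower in KO, at 52.8 and 15.2 CPM, as was Ccnb2, at 22.8 and 8.93 CPM. In the KO library 3 cells held 42.3% of the S UMIs, and the S ratio without the cell with the most G2/M UMIs in each library was 0.50 (0.36 to 0.64). With cycling cells left out the S sums were 171 and 185 CPM (log2 0.12, -0.15 to 0.37). The 2 dendritic-like clusters went opposite ways, at 504 and 890 CPM in the cluster of Xcr1 and Clec9a and at 331 and 263 CPM in that of Ccl22 and Ccl17, and the former made up 86 of 285 control but 30 of 67 KO cells. KO dendritic-like cells were also deeper (median 12643 UMIs in the control, 17190 UMIs in KO), and with each cell thinned to 2000 UMIs the S ratio was 0.41 (-0.08 to 0.88). It was 0.28 with cell cycle genes allowed in clustering.

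The other genes of the cycle differed little as lists. Of all 13720 genes measured over all cells, 2.35% were 2-fold higher in the KO library and 2.18% 2-fold lower. Of 34 other S genes measured, 2 were 2-fold higher and 0 lower. These were Ung (log2 1.02), a repair glycosylase, and Clspn (log2 1.04), a checkpoint adaptor, both named after their values were seen. Of 43 other G2/M genes, 5 G1 cyclins and kinases and 12 inhibitors and pocket proteins, 0 were past 2-fold, and the medians were 0.14, 0.17, 0.15 and 0.29 beside -0.08 for all genes. The most abundant of the other S genes were Slbp, which binds histone mRNA (log2 -0.15), Dnmt1, the maintenance methyltransferase (0.28), Dut (0.03) and Orc6 (-0.11). Those of the other G2/M genes were H2afz (0.05), Tubb4b (0.06), Hmgb2 (0.22) and Smc4, of condensin (0.51).

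The G1 cyclins and kinases, which start the cycle, and the inhibitors had most of their UMIs outside cycling cells, with medians of 6.65% and 5.77% of control UMIs inside. Ccnd2 had 335 CPM in the control and a log2 ratio of 0.22, Ccnd3 118 CPM and 0.22, and Ccnd1 92.1 CPM and -0.38. In the Lyz1 and Mmp12 cluster Ccnd1 had 76.5 CPM in control cells and 24.7 CPM in KO cells (log2 -1.63), and Ccnd2 136 and 233 CPM (log2 0.78). The 2 cyclins thus differed in direction there, as they did over all cells and in dendritic-like cells (log2 -0.53 and 0.42). In endothelial-like cells both were lower in KO (log2 -0.44 and -0.45). Cdkn1a, the inhibitor p21, had 66.0 CPM in the control and a log2 ratio of 0.82, Cdkn1b (p27) 110 CPM and 0.28, Trp53 68.0 CPM and 0.33, and Rbl2 59.9 CPM and 0.01. The Cdkn1a difference was unequal between groups: 48.7 and 442 CPM in endothelial-like cells (log2 3.18), 41.5 and 131 CPM in ILC2-like cells (log2 1.66), 37.2 and 74.1 CPM in fibroblast-like cells and 175 and 201 CPM in the Lyz1 and Mmp12 cluster (log2 0.21). The cluster led by Hbb-bt and Hba-a2 went the other way, with 53 and 4 UMIs (log2 -1.59, -3.52 to -0.15). Cdkn1a is also induced by cell stress, and the dissociation transcripts given above were higher in KO cells. Their part in this difference was not tested.

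Outside all of these lists, the 10 genes with the largest ratio of cycling over other cells in the control were Hist1h1b, Hist1h3c, Sgol1, Ska1, Mxd3, Kif14, Neil3, 2810417H13Rik, Spag5 and Esco2. Hist1h1b, a linker histone, had 342 UMIs in 91 cycling and 13 in the other control cells, and 155 and 11 in the KO library. Sgol1 protects sister chromatid cohesion, Ska1 couples kinetochores to microtubules, Kif14 acts in cytokinesis and Esco2 acetylates cohesin in S phase. The 10 genes had log2 ratios from 7.63 to 9.15 in the control and from 5.90 to 7.60 in the KO library, with counts under 3 set to 3.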

How the data were processed

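Per the labels, the authors digested gWAT with collagenase and Dispase, made 10x Genomics libraries of the SVF, and processed reads with Cell Ranger 3.0.1 against mm10 (Seurat 3.1.5 and R 4.0.1 are also named). The authors deposited whole-number UMI counts per gene and barcode without normalization. Counts come from transcript 3′ ends.

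Barcodes needed 500 detected genes and no more than 10% mitochondrial UMIs. Counts were scaled to 10000 per cell and log-transformed, and 2000 variable genes, 30 components, 20 neighbours and Leiden resolution 0.5 gave the clusters, with 134 listed cell cycle genes and all genes correlated at 0.2 or more with the G2/M mean left out. A cluster was named where its mean z over a marker list was above 0.5 and 0.75 above the next, with 3 markers found. Its thresholds were chosen with results in view. Doublets were kept in the main values, with the highest Scrublet scores removed as an alternative. CPM, exact Poisson, Clopper-Pearson and conditional binomial intervals (95%) were computed, with no p-value, and counts under 3 were set to 3 for 2-fold calls of genes with at least 50 UMIs. All 38 members are described. Of the companion lists (4 listed names were not found), up to 4 genes with the most UMIs are named. Members and lists were chosen with earlier results of these data known. The 2 libraries share 9 barcode sequences. Steps were tested on simulated data.

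Python 3.11.15, numpy 2.4.6, scipy 1.17.1, scanpy 1.11.5, leidenalg 0.10.2, R 4.3.3 and edgeR 4.0.16 were used.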

Additional observations from a re-analysis of the deposited data

Results flagged for a closer look

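The G2/M sum went in opposite directions in different groups of cells, KO over control, each with an interval that leaves out 0. The log2 ratio was -3.30 in ILC2-like, -2.12 in NK-like, -2.25 in T-like and -2.03 in fibroblast-like cells, and -3.95 (-9.27 to -1.42) in the shallow unnamed cluster led by Hbb-bt and Hba-a2, where the KO library had 1 UMI. It was 0.24 in the Lyz1 and Mmp12 cluster and 0.92 in endothelial-like cells. The difference between these groups was not tested, since each genotype has 1 library, and 4 of these values rested largely on 1 cell each. In 1 control cell lay 283 of 334 ILC2-like and 427 of 615 fibroblast-like UMIs, and without the top cells these ratios were -0.78 (-1.72 to 0.08) and -0.42 (-0.94 to 0.07). In 1 KO cell lay 464 of 636 UMIs of the Lyz1 and Mmp12 cluster and 21 of 40 endothelial-like UMIs. Without the top cells these ratios were -1.32 and 0.16. Leaving out the top cells takes a larger share of cells from the KO library, so no direction is read from such ratios. The T-like and NK-like values also rested on few cells. There 1 control cell held 312 of 649 and 204 of 459 UMIs, and 3 control cells held 71.3% and 79.7%. With each cell assigned by its own markers, T-like and NK-like cells had 0.98 and 0.75.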

How the results depend on the processing

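No paired analysis was possible because each genotype has 1 library, and for the same reason no replicate could be left out. Values of all cells come first. With a filter of 200 genes and 20% mitochondrial UMIs the control cycling share was 1.72%. With 1000 genes and 5% the shares were 3.43% (control) and 5.58% (KO) and the G2/M ratio 0.28. Thinned to 2000 UMIs, they were 1.36% and 1.99%, the G2/M ratio 0.32 and the dendritic-like control share 6.03%. At 1 UMI of Mki67 and Top2a the shares were 6.31% and 7.10%, at 3 UMIs 1.75% in the control, and by the other G2/M members 2.51% in KO. The G2/M and S ratios were -1.19 and -0.18 without the 10 top cells of each library, which removes 36.0% of control but 76.4% of KO G2/M UMIs and so lowers the ratio by construction, 0.11 and 0.06 without the top 1% of cells (chosen after seeing the data), 0.29 and 0.13 with edgeR TMM factors and also with median-of-ratios factors, and -0.12 and -0.15 with KO clusters weighted to the control mix. By group, thinning gave G2/M -0.69 in the Lyz1 and Mmp12 cluster and S 0.23 in fibroblast-like cells, with 1 group whose G2/M interval lay above 0 and 0 whose S interval lay below it. Resolution 0.3 gave G2/M 0.86 in T-like cells. With cell cycle genes allowed in clustering, T-like cells had 0.18, NK-like 0.013, 3 groups lay below 0, and the dendritic-like control share was 14.1%. With each library clustered alone, NK-like cells had 2.85, the Lyz1 and Mmp12 cluster -0.30, endothelial-like cells -0.091, and 2 groups had S intervals above 0. By their own markers, T-like cells had 0.98 and NK-like 0.75, with 2 groups below 0 for G2/M and 1 for S. Without the top cell of each group and library, also chosen after seeing the data, the Lyz1 and Mmp12 cluster had -1.32 and 0 groups lay above 0. The cause of the other changes was not tested. Of the values over all cells, the counts of groups and members and the dendritic-like control share, 60 stayed within the main interval or 1.5 times the main count, 27 moved and 2 reversed. Of the values of single groups, 220 stayed, 36 moved and 11 reversed. The number of cells limits small groups: 0 of 52 NK-like KO cells has a Clopper-Pearson upper end of 6.85%.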

Other observations

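Cycling cells were deeper than the rest. Cells with 2 or more Mki67 and Top2a UMIs had a median of 13952 UMIs among control cells and 12941.5 UMIs among KO cells, and cells with none 6754.5 and 7284 UMIs. The highest Scrublet scores took in 6 of 91 cycling control cells (6.59%) and 0 of 36 cycling KO cells, beside 4.32% and 0.787% of cells without a Mki67 or Top2a UMI.

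Cells with at least 3 of the other 22 G2/M members but fewer than 2 Mki67 and Top2a UMIs numbered 37 among control cells and 6 among KO cells, with a median of 3 such members in each.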
